A study of Homo sapiens with 8 samples.

Results

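The genes examined here make and load the peptides that MHC class I molecules present: TAP1, TAP2, TAPBP, PSMB8, PSMB9, PSMB10, PSME1, B2M, HLA-F and NLRC5. They were taken by name, as every array probe set annotated to exactly 1 of the 10 symbols. This gave 19 probe sets, at least 1 for each gene, among 41091 probe sets of 19775 genes with exactly 1 symbol. A probe set is the group of short array probes that reads a transcript, and its value is a log2 expression level. Each gene is represented by its lead probe set, the one with the highest mean over all arrays, and its other probe sets are given where they exist.

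The cells were Reh, an established line grown from an acute lymphoblastic leukaemia of precursor B cells, and RNA was read on Affymetrix U133 Plus 2.0 arrays. The 4 groups differed in what was transfected: control constructs in the mock group, IRF5-4D alone, IKKβ(EE) alone, or IRF5-4D and IKKβ(EE) together, here called the combination. IRF5-4D is a constitutively active form of the transcription factor IRF5, and IKKβ(EE) is a constitutively active form of the kinase IKKβ, encoded by IKBKB, which frees NF-κB from its inhibitors. Each group held 2 arrays, labelled 1 and 3 and described as biological duplicates, so 8 arrays entered the comparisons. The make-up of the control constructs, the promoters driving the inserts, the time to harvest and the share of cells transfected were not stated in any label read here. Because RNA came from whole cultures, a change in a few cells and a smaller change in all of them cannot be told apart. The design asks what each construct does alone and what the pair does together.

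MHC class I molecules show peptides from the cell's own proteins to cytotoxic T cells. Proteasomes cut the proteins, and in immune cells and after interferon the catalytic subunits PSMB8, PSMB9 and PSMB10 can replace the standard ones, while PSME1 is part of a cap that opens the particle. The transporter TAP1-TAP2 pumps the peptides into the endoplasmic reticulum, where tapasin (TAPBP) holds empty class I molecules beside it until a peptide fits. B2M is the light chain of every class I molecule, HLA-F is a non-classical heavy chain, and NLRC5 is the transactivator that drives class I promoters together with the RFX complex.

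The pathway is known to be regulated by both NF-κB and interferon regulatory factors, so the 250 bases before each gene's start were searched for a pattern of each on both strands. The windows come from RefSeq on build GRCh38.p14, whose table held 9 of the 10 genes; NLRC5 was not among them. The κB pattern, GGG then any 5 bases then CC, stood in the windows of 5 of the 9 genes (TAP1, TAP2, TAPBP, PSME1 and B2M), and in 53.7% of the windows of 27305 genes. The interferon response pattern, GAAA then any 2 bases then GAAA, stood in 6 of the 9 (TAP1, TAP2, TAPBP, PSMB10, B2M and HLA-F), against 3.07% of all windows. Both patterns stood in TAP1, TAP2, TAPBP and B2M, against 1.11% of all windows. Matches of a pattern with itself or with the other may overlap, and a match is a run of letters, not a shown binding site. The PSMB8 and PSMB9 windows held no match to these letters, and bases further upstream were not searched. TAP1 and PSMB8 each had 2 windows, and only that of the outermost start was searched.

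The windows of 4 genes are shown whole: TAP1 and TAPBP, which rose in the combination in every setting tried, B2M, which holds the same patterns but did not pass the test, and PSMB9, which lies head to head with TAP1. All run 5′ to 3′ on the gene's strand and end at the base before the start, and capitals mark every match to either pattern.
TAP1, chr6:32853705-32853954, minus strand: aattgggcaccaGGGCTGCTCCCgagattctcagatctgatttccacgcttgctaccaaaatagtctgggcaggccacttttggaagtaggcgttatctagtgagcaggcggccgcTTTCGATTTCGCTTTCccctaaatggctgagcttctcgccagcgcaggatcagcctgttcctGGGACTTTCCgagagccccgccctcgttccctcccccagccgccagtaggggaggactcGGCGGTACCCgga
TAPBP, chr6:33314079-33314328, minus strand: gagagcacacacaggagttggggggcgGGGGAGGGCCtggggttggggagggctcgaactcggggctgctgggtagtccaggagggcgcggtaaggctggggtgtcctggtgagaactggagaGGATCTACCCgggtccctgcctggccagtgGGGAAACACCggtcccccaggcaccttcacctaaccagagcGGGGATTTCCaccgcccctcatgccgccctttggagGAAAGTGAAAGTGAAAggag
B2M, chr15:44711267-44711516, plus strand: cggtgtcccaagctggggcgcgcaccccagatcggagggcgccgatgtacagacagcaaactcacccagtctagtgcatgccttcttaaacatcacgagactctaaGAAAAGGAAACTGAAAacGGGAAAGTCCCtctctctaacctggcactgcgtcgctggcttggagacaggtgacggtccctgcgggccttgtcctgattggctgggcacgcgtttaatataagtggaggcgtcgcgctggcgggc
PSMB9, chr6:32853942-32854191, plus strand: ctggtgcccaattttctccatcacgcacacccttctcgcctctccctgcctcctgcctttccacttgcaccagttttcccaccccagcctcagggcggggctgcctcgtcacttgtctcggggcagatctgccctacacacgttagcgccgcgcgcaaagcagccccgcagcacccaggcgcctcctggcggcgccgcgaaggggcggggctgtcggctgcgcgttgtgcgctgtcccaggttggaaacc
Of the 4 κB matches in the TAP1 window, GGGACTTTCC lay at bases -72 to -63 from the start. A pair of overlapping interferon response matches covered bases -134 to -119. Of the 4 κB matches in the TAPBP window, GGGGATTTCC lay at -56 to -47, and 2 overlapping interferon response matches lay between -20 and -5. B2M held the same 10 letters as TAP1 on the opposite strand, at -125 to -116. The starts of TAP1 and PSMB9 lay 487 bases apart and their windows shared 13 bases, the last of which opens the TAP1 κB match at -238 to -229. The TAP1 matches at -134 to -119 and -72 to -63 lay between the starts, so also upstream of PSMB9, but outside its window. The κB matches of TAP2 and PSME1 are not printed. The interferon response match of the other genes is shown with its neighbouring bases, the match in capitals.
TAP2: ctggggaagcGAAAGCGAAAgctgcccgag
PSMB10: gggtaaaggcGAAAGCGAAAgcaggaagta
HLA-F: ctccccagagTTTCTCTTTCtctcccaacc

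Across all arrays the medians over probe sets ran from 5.10 to 5.14, and duplicates correlated at 0.994 to 0.996 over the 41091 probe sets. Of 3 IKBKB probe sets, the one that responded, chosen after its values were seen, gave 4.80 and 4.06 in mock cells, 12.57 and 10.98 with IKKβ(EE), and 11.11 and 9.33 in the combination, always higher on array 1. The highest IRF5 probe set gave 6.93 and 7.06 in mock cells, 7.15 and 7.25 with IRF5-4D and 8.0 and 7.82 in the combination. It was higher in the combination than with IRF5-4D by 0.71 (limma adjusted p = 0.0379). Another, 205468_s_at, named after its values were seen, read 5.355 and 4.82 in mock cells and 5.65 and 5.66 with IRF5-4D. It read 5.13 and 5.04 with IKKβ(EE) and 5.56 and 5.60 in the combination. Against mock neither difference with IRF5-4D passed (limma adjusted p = 0.701 alone, 0.195 in the combination). The dimmest, 239412_at, read 4.03 to 4.58. No label says whether these probes lie in the insert, so the IRF5-4D label was left unchecked. Each marker was set against the median level of all probe sets (5.51) by its mean over the 8 arrays. Of 10 markers of precursor B cells 9 were measured, and 8 of these lay above the median. The exception was VPREB1, which read 4.06 to 4.46. The summed level of the 9 was 15.49 to 15.70 (log2) on the 8 arrays. The levels were summed on the linear scale, so the brightest, such as DNTT (mean level 14.11), weigh most and the dimmer ones little. All 8 markers of T and NK cells lay below that median by this mean (summed level 7.57 to 7.96). The T-cell chains CD3D and CD3E read at most 4.91 and 4.58, but CD3G and NCAM1 reached 5.55 and 5.52 on single arrays. NKG7, also among the 8, read 5.77 and 6.19 in the combination. It was higher there than in mock cells by 1.34 (limma adjusted p = 0.00545). Of 8 myeloid markers 6, and of 6 stromal and epithelial markers 5, lay below the median, and none of these or of the B-lineage markers passed limma's test against mock by lead probe set. A dim probe set of the stromal marker COL1A1, 1556499_s_at, named after its values were seen, read 3.73 and 3.71 in mock cells, 8.10 and 6.58 with IKKβ(EE) and 6.48 and 4.24 in the combination (limma adjusted p = 0.0651 and 0.267), while the lead COL1A1 probe set stayed between 7.35 and 7.82. The myeloid marker ITGAM differed with IKKβ(EE) by 0.91 on 205786_s_at (adjusted p = 0.182). The part of these markers in the results was not tested.

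In the combination 5 of the 10 genes rose over mock by their lead probe set: TAP1, HLA-F, TAPBP, TAP2 and PSMB9, by 1.48-fold to 3.90-fold, where limma called 2.04% of all probe sets higher at an adjusted p under 0.05. IKKβ(EE) alone raised 1 of the 10, TAP1, past the same test, where 0.37% of all probe sets were called higher. With IRF5-4D alone limma called 0 of the 10, where 0.238% were called higher, and 2 of the 10 had an unadjusted p under 0.05, as did 5.16% of all probe sets. The group mean was highest in the combination for 9 of the 10 genes, B2M being the exception, and lowest in mock cells for 9, with NLRC5 the exception. Groups next to each other in this order overlapped at all 3 steps for PSMB10 and PSME1, and at 2 for B2M and NLRC5. The share of all probe sets with these orders was not taken.

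TAP1 had the largest rise in the combination among the 10 lead probe sets. Its single probe set read 9.44 and 9.56 in mock cells, 9.92 and 10.10 with IRF5-4D, 10.69 and 10.50 with IKKβ(EE), and 11.57 and 11.36 in the combination, arrays 1 and 3 in that order. The groups formed 4 steps with no overlap, mock lowest and the combination highest. Against mock the combination was higher by 1.96 (SE 0.14), or 3.90-fold (limma adjusted p = 0.000107). IKKβ(EE) alone was higher by 1.09 (SE 0.14), or 2.13-fold (limma adjusted p = 0.0120). With IRF5-4D alone the difference was 0.51 (SE 0.14, 95% interval 0.20 to 0.81), which did not pass the test over all probe sets (limma adjusted p = 0.605). The rise in the combination passed the test in each of 18 other settings, at 1.86 to 2.07. The rise with IKKβ(EE) lost its call without mock array 1 (1.03), mock array 3 (1.15), IKKβ(EE) array 1 (1.0) or IKKβ(EE) array 3 (1.19). TAP1, like the IKBKB probe set, was higher on array 1 than on array 3 in both groups with IKKβ(EE), and the part of the IKBKB level in this was not tested.

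**Figure D1:**
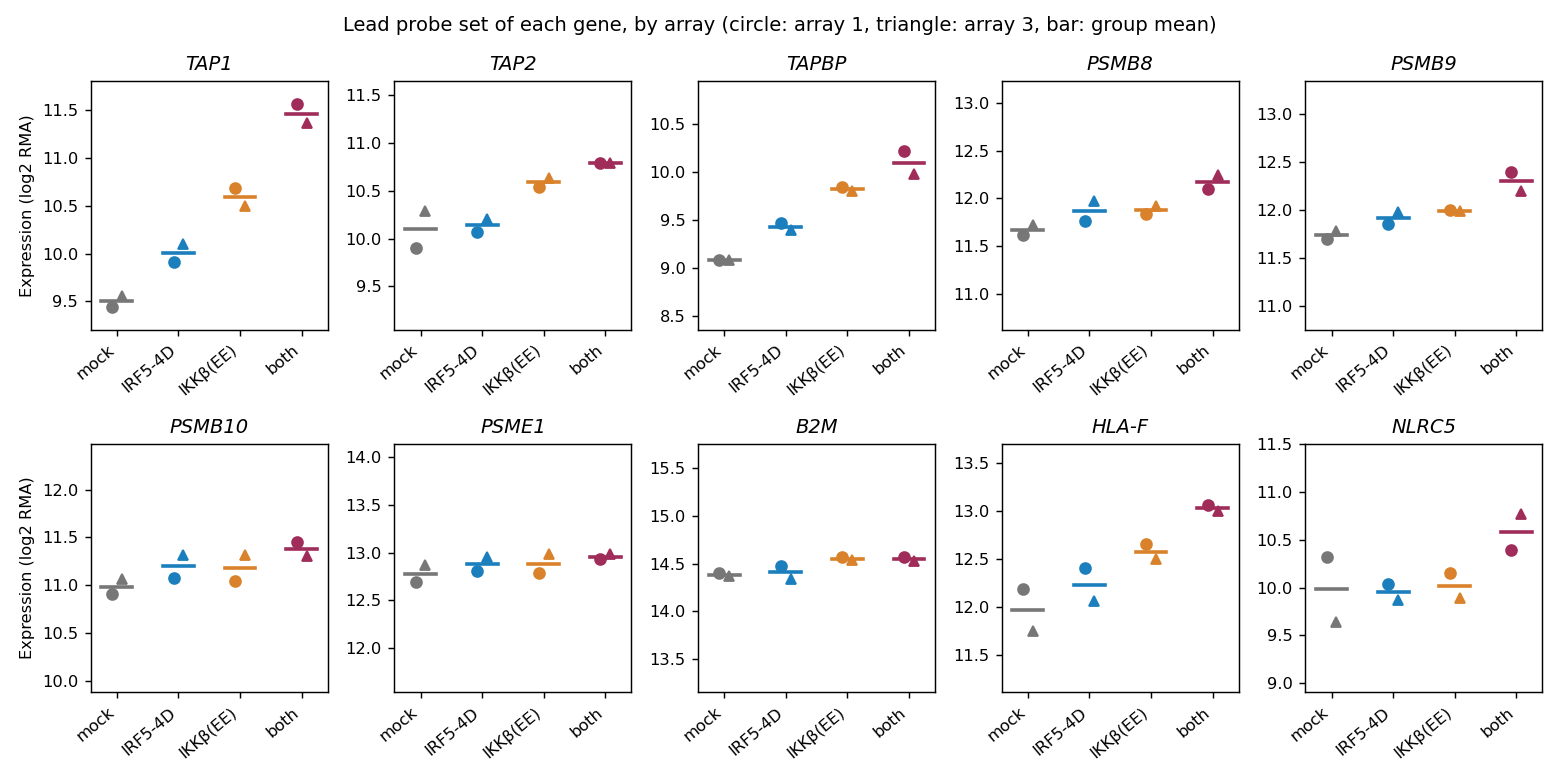
Log2 RMA level of the lead probe set of each of the 10 genes (vertical axis, each panel spanning the same log2 range) in mock, IRF5-4D, IKKβ(EE) and combination arrays (horizontal axis). Circles are arrays 1, triangles arrays 3 and bars group means. TAP1, TAPBP and PSMB9 step up through all 4 groups without overlap, PSMB9 only narrowly between IRF5-4D and IKKβ(EE), while B2M stays between 14.34 and 14.57.

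The other chain of the transporter, TAP2, gave smaller values. Its lead probe set read 9.90 and 10.29 in mock cells, 10.07 and 10.21 with IRF5-4D, 10.55 and 10.63 with IKKβ(EE), and 10.79 on both arrays of the combination. The IRF5-4D values lay within the mock range, and both groups with IKKβ(EE) lay above it. TAP2 rose in the combination by 0.69 (SE 0.15), or 1.62-fold (limma adjusted p = 0.0426), and differed from mock by 0.49 with IKKβ(EE) (adjusted p = 0.435) and by 0.04 with IRF5-4D. The call in the combination held in 1 of the 8 fits that left out an array (0.89 without mock array 3), and the difference was smallest, 0.50, without mock array 1. Of its 3 other probe sets, 204769_s_at and 204770_at differed in the combination by 0.52 (adjusted p = 0.185) and 0.57 (adjusted p = 0.121). The third, 208428_at, had a mean of 3.80, under the lower quartile of 3.89 over all probe sets, and its difference was 0.00 (95% interval -0.41 to 0.42).

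Tapasin followed the order of TAP1. The lead TAPBP probe set read 9.08 and 9.09 in mock cells, 9.47 and 9.39 with IRF5-4D, 9.85 and 9.80 with IKKβ(EE), and 10.22 and 9.98 in the combination. As for TAP1, the groups did not overlap. TAPBP rose in the combination by 1.01 (SE 0.12), or 2.02-fold (limma adjusted p = 0.00286), and a second probe set, 1555565_s_at, rose by 0.99 (SE 0.15, adjusted p = 0.00970). TAPBP passed the test in all 18 other settings, at 0.89 to 1.14 as arrays were left out and at 0.81 as the mean of its 3 probe sets. With IKKβ(EE) alone it was 0.74 above mock (SE 0.12, 95% interval 0.46 to 1.02) and missed the threshold narrowly (limma adjusted p = 0.0503). It passed in 6 of 18 other settings, among them the fit with 1 probe set per gene. With IRF5-4D the difference was 0.35 (SE 0.12, adjusted p = 0.901). The remaining probe set, 210294_at, spread from 4.94 to 5.63 on the mock arrays alone, and its 0.42 in the combination did not pass (adjusted p = 0.569).

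Among the immunoproteasome subunits the differences were smaller. PSMB9 read 11.70 and 11.78 in mock cells, 11.86 and 11.98 with IRF5-4D, 12.001 and 11.987 with IKKβ(EE), and 12.40 and 12.20 in the combination. The groups were again separate and in the same order as for TAP1, its head-to-head neighbour. PSMB9 was higher in the combination by 0.56 (SE 0.12), or 1.48-fold, just past the threshold (limma adjusted p = 0.0495). The call was lost in each of the 8 fits without 1 array, with values of 0.46 to 0.66. PSMB8, whose gene lies between TAP2 and TAP1, read 11.61 and 11.72 in mock cells and 12.10 and 12.24 in the combination. The difference of 0.50 (95% interval 0.22 to 0.79) did not pass (limma adjusted p = 0.0862), although the arrays were separate. PSMB10 read 10.90 and 11.07 in mock cells against 11.46 and 11.30 in the combination, a difference of 0.39 (adjusted p = 0.240). With either construct alone the 3 subunits differed from mock by 0.18 to 0.26, and none passed.

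The standard subunits that these 3 replace gave smaller values in the same contrast. In the combination against mock, PSMB5 differed by 0.03, PSMB6 by -0.03 and PSMB7 by -0.09, and POMP, which helps assemble new proteasomes, by -0.15; none of the 4 passed. The lead probe sets of the immunoproteasome genes thus differed by 0.39 to 0.56, and those of the standard subunits and POMP by -0.15 to 0.03, but the difference between the sets was not tested. The cap subunit PSME1 read 12.69 and 12.87 in mock cells, 12.81 and 12.95 with IRF5-4D, 12.79 and 12.99 with IKKβ(EE), and 12.93 and 12.98 in the combination. Its neighbouring groups overlapped at every step, and its difference in the combination was 0.18 (95% interval -0.11 to 0.47, limma adjusted p = 0.580). The probe sets of the other caps disagreed in sign and none passed, those of PSME3 running from -0.51 to 0.16 and those of PSME4 from -0.29 to 0.31. ERAP1 and ERAP2, which trim peptides in the endoplasmic reticulum, differed by 0.05 and 0.31 on their lead probe sets, with others from -0.05 to 0.47 and from -0.06 to 0.18.

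B2M gave signals close to the top of the arrays, whose highest probe sets read 14.85 to 14.92. Its lead probe set read 14.40 and 14.37 in mock cells, 14.48 and 14.34 with IRF5-4D, 14.57 and 14.54 with IKKβ(EE), and 14.56 and 14.52 in the combination. Both groups with IKKβ(EE) lay above mock, but the difference in the combination was 0.16 (SE 0.11, 95% interval -0.10 to 0.42) and did not pass (limma adjusted p = 0.579). The probe set 201891_s_at, also above 14 on every array, differed by 0.08. The third, 232311_at, read lower, at 9.03 and 8.65 in mock cells and 9.79 and 9.65 in the combination, with a difference of 0.87 (SE 0.25, adjusted p = 0.122). How far probes near the top of the scale can follow a change was not tested.

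HLA-F was the only heavy chain among the 10 genes. Its lead probe set read 12.18 and 11.74 in mock cells, 12.40 and 12.06 with IRF5-4D, 12.65 and 12.50 with IKKβ(EE), and 13.07 and 12.9995 in the combination. The mock and IRF5-4D arrays overlapped, and array 1 was above array 3 in all 4 groups. HLA-F rose in the combination by 1.07 (SE 0.17), or 2.10-fold (limma adjusted p = 0.0119), and its other probe sets rose too, 204806_x_at by 0.95 (adjusted p = 0.0271) and 221978_at by 1.42 (SE 0.26, adjusted p = 0.0246). Probe sets ending in _x_at may bind transcripts of related HLA genes, and 221978_at does not have that ending. The lead call was lost without mock array 3 (0.85) or combination array 1 (1.04). With IKKβ(EE) the lead probe set was 0.61 above mock (adjusted p = 0.388), and with IRF5-4D it was 0.27 above.

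The other heavy chains measured, HLA-B, HLA-C, HLA-E and HLA-G, had 14 probe sets, all but HLA-E 200904_at ending in _x_at, and all 14 lay above mock on both combination arrays, as did 18.1% of all probe sets, by 0.36 to 0.75. By lead probe set HLA-G differed by 0.68 (limma adjusted p = 0.104), HLA-E by 0.60 (adjusted p = 0.158), HLA-B by 0.37 (adjusted p = 0.235) and HLA-C by 0.36 (adjusted p = 0.240). The value of 0.75 was that of HLA-E 200904_at (adjusted p = 0.0546), and none of the 14 passed the test.

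NLRC5 departed from the pattern of the genes above. It read 10.32 and 9.64 in mock cells, 10.04 and 9.87 with IRF5-4D, 10.15 and 9.89 with IKKβ(EE), and 10.39 and 10.77 in the combination. The single-construct arrays lay within the mock range, and only the combination arrays lay above it. The difference of 0.60 in the combination (SE 0.22, 95% interval 0.09 to 1.10) did not pass (limma adjusted p = 0.243), and was 0.94 without mock array 1, 0.26 without mock array 3, 0.79 without combination array 1 and 0.41 without combination array 3. With IRF5-4D or IKKβ(EE) alone it was -0.03 and 0.04. Each of these turned sign without 1 of the mock arrays, ranging from -0.37 to 0.31 and from -0.30 to 0.38 as arrays were left out. RFX5 is a subunit of the RFX complex with which NLRC5 acts. It read 11.17 and 11.20 in mock cells and 11.31 and 11.43 with IRF5-4D. With IKKβ(EE) it read 11.64 and 11.45, and in the combination 11.95 on both arrays. Unlike those of NLRC5, its groups did not overlap and followed the order of TAP1, also on its probe set 202964_s_at. In the combination RFX5 rose over mock by 0.76 (SE 0.12, limma adjusted p = 0.0108), and 202964_s_at by 0.90 (adjusted p = 0.00493). Against IRF5-4D, 202964_s_at was also called higher in the combination, by 0.66, where 0.84% of all probe sets were. The lead RFX5 probe set was not. The other RFX subunits, RFXAP and RFXANK, differed by 0.01 and 0.21, and none of the 3 probe sets of CIITA, the class II counterpart of NLRC5, passed. The CIITA probe sets disagreed, the lead reading -0.65 (limma adjusted p = 0.329) and 211884_s_at 0.54 (adjusted p = 0.276).

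**Figure D2:**
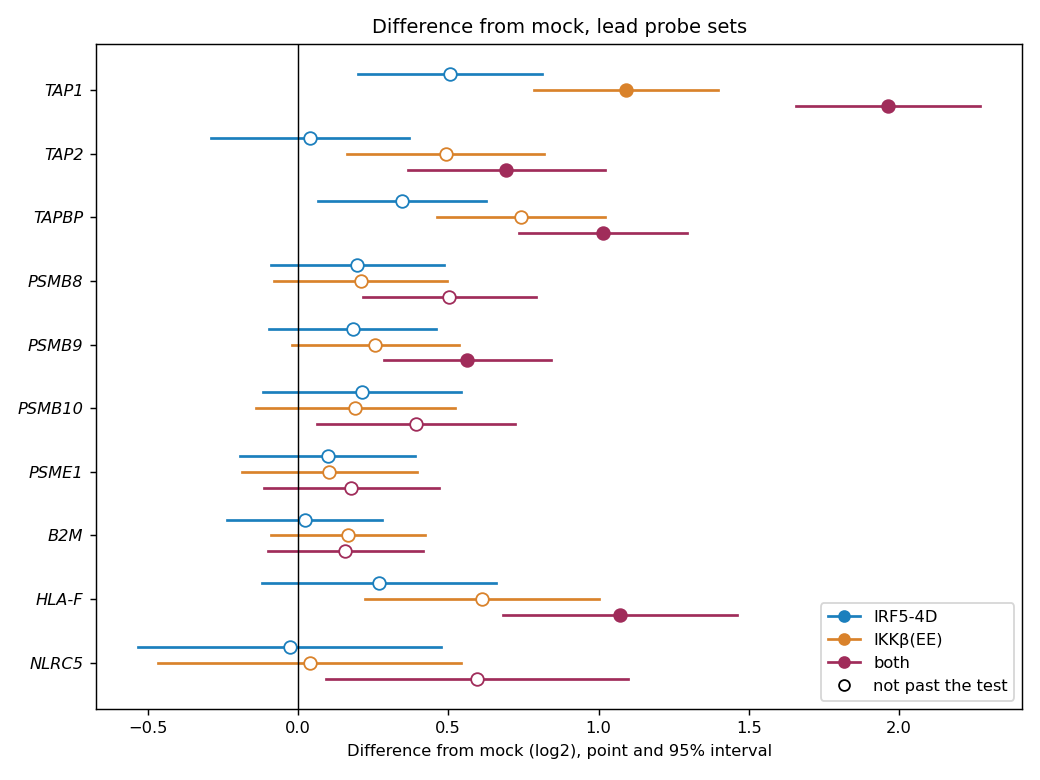
Difference from mock of the lead probe set of each gene (horizontal axis, log2, point with 95% interval) for IRF5-4D, IKKβ(EE) and the combination. Filled points passed limma's test over all probe sets: 0 genes with IRF5-4D, TAP1 with IKKβ(EE), and TAP1, TAP2, TAPBP, PSMB9 and HLA-F with both.

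Of the 10 genes together, 8 of the 19 probe sets, in 5 of the 10 genes, were called higher in the combination than in mock cells and none lower, where 0.509% of all probe sets were called lower. All 19 differences were above 0, against 43.3% of all 41091 probe sets, and their median was 0.57 against -0.03 over all. Both combination arrays lay above both mock arrays for 17 of the 19, where 18.1% of all probe sets did so. With IKKβ(EE) alone 1 of the 19 was called, the TAP1 probe set. There 18 were above 0 against 43.9% of all probe sets, and 14 had separate arrays against 15%. The median was 0.49 (0.23 over the 10 lead probe sets, -0.02 over all probe sets). With IRF5-4D alone limma called 0 of the 19, where 0.00487% of all probe sets were called lower. Of the 19, 4 had an unadjusted p under 0.05 against 5.16% of all probe sets, 8 had separate arrays against 14.4% of all probe sets, and the median was 0.20 against -0.01. The 3 comparisons share the mock arrays, and the probe sets of a gene are not independent of each other. The 10 genes were chosen with earlier results of these data known. Their lead probe sets lie at percentiles 88.1 to 99.9 of level, while the shares over all probe sets include dim ones.

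**Figure D3:**
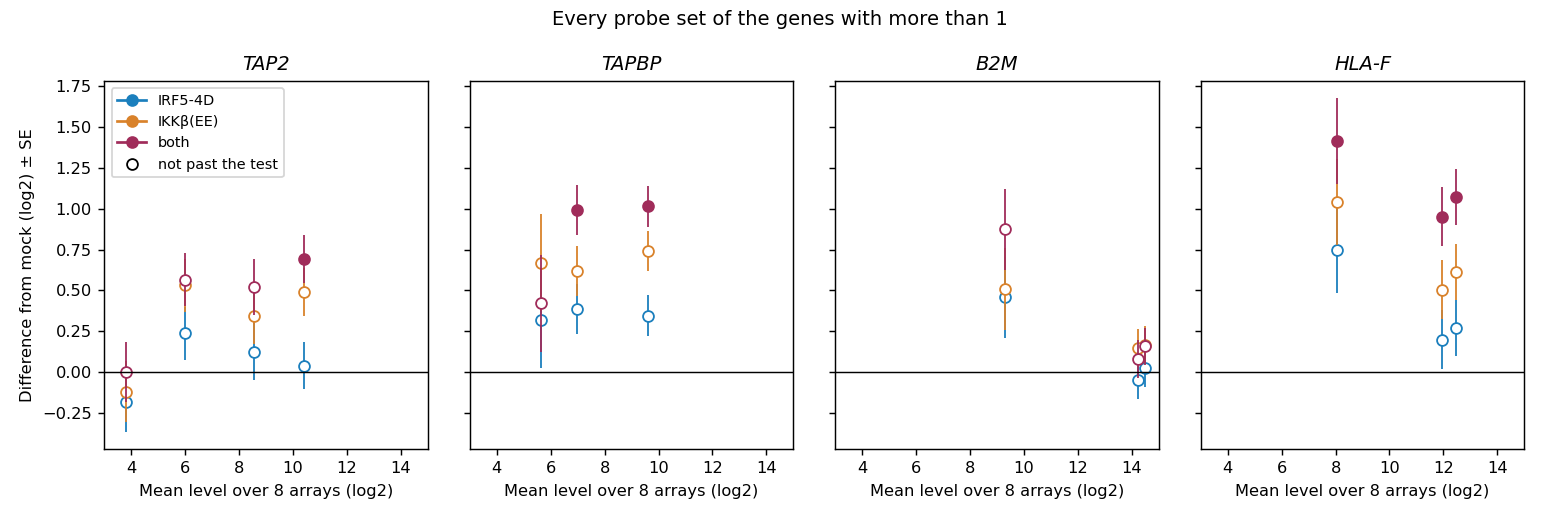
Difference from mock (vertical axis, log2, bars are the SE) against the mean level over the 8 arrays (horizontal axis, log2) for every probe set of TAP2, TAPBP, B2M and HLA-F, the genes with more than 1. Filled points passed limma's test; the dimmest TAP2 probe set, at 3.80, reads 0.00 in the combination, and the B2M probe sets above 14 read 0.08 and 0.16.

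The combination was then set against each construct alone. Against IRF5-4D, 2 of the 10 genes were called higher, where 0.84% of all probe sets were: TAP1 by 1.46 (SE 0.14), or 2.75-fold (limma adjusted p = 0.00185), and TAPBP by 0.67 (SE 0.12), or 1.59-fold (adjusted p = 0.0439). The TAP1 call held in all 18 other settings, at 1.35 to 1.56, whereas TAPBP kept its call in 1 of 8 fits without an array, the one without combination array 3. HLA-F differed by 0.80 (adjusted p = 0.0755), TAP2 by 0.65 (adjusted p = 0.0855), NLRC5 by 0.62 (adjusted p = 0.286) and PSMB9 by 0.38 (adjusted p = 0.231). Against IKKβ(EE), only TAP1 was called, higher by 0.87 (SE 0.14), or 1.83-fold (limma adjusted p = 0.0163), where 1.06% of all probe sets were called higher. Without IKKβ(EE) array 1 (0.97), IKKβ(EE) array 3 (0.78) or combination array 1 (0.77) it did not pass. NLRC5 differed from IKKβ(EE) by 0.56, HLA-F by 0.46, PSMB9 by 0.31, TAPBP by 0.27 and TAP2 by 0.20, none past the test.

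IRF5-4D and IKKβ(EE) alone were also compared with each other. IRF5-4D was lower for 18 of the 19 probe sets, while 53.1% of all probe sets lay higher with it. Limma called 0 of the 19, where 0.336% of all probe sets were called lower and 0.258% higher. Of the 19, 3 had an unadjusted p under 0.05, as did 6.96% of all probe sets. The arrays were separate for 10 of the 19, all of them lower with IRF5-4D. Among all probe sets 17.7% were separate and lower. TAP1 differed by -0.59 (95% interval -0.89 to -0.28, limma adjusted p = 0.179), TAP2 by -0.45, TAPBP by -0.40, HLA-F by -0.34 and NLRC5 by -0.07.

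Whether the combination exceeded the sum of its parts was tested as an interaction, the combination's difference from mock minus those of both single constructs on the log2 scale. Limma called 0 of the 19 probe sets, and none had an unadjusted p under 0.05 (6.36% of all probe sets did), where 0.0535% of all probe sets were called above 0 and 0.0268% below. TAP1 gave 0.37 (SE 0.19, 95% interval -0.07 to 0.80, limma adjusted p = 0.850) and NLRC5 gave 0.59 (SE 0.32, adjusted p = 0.850), or 0.24 without mock array 1 and 0.93 without mock array 3. HLA-F gave 0.19 on its lead probe set and -0.37 on 221978_at, TAP2 0.16, PSMB9 0.12 and TAPBP -0.07. The median SE over all probe sets was 0.20 for this contrast and 0.14 for a comparison of 2 groups.

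The rest of the pathway was read through a list of 25 further genes, of which 22 were measured with 61 probe sets; the others were not analysed here. By lead probe set, RFX5 was the 1 gene of 22 called higher in the combination, none was called lower, 13 differences were above 0 and the median was 0.04; over all probe sets 2.04% were called higher, 0.509% lower, and 43.3% were above 0 with a median of -0.03. Limma called 0 of the 22 with either construct alone, where 0 (IRF5-4D) and 3 (IKKβ(EE)) had an unadjusted p under 0.05, against 5.16% and 6.78% of all probe sets. IRF1, an interferon-induced activator of class I promoters, differed in the combination by 0.33 (limma adjusted p = 0.449; -0.21 on its other probe set) and IRF2 by 0.40 (adjusted p = 0.191). The lectin chaperone CALR lay below mock by 0.98 (SE 0.27) without passing (limma adjusted p = 0.116); it read 10.74 and 9.78 in mock cells and 9.45 and 9.11 in the combination. PDIA3, which works with it in the loading complex, differed by -0.57 (adjusted p = 0.266). The other probe sets of CALR and PDIA3 also lay below mock, by 0.90 to 1.09, and did not pass. The chaperone CANX differed by -0.16 and TAPBPL, a relative of tapasin, by 0.00.

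**Figure D4:**
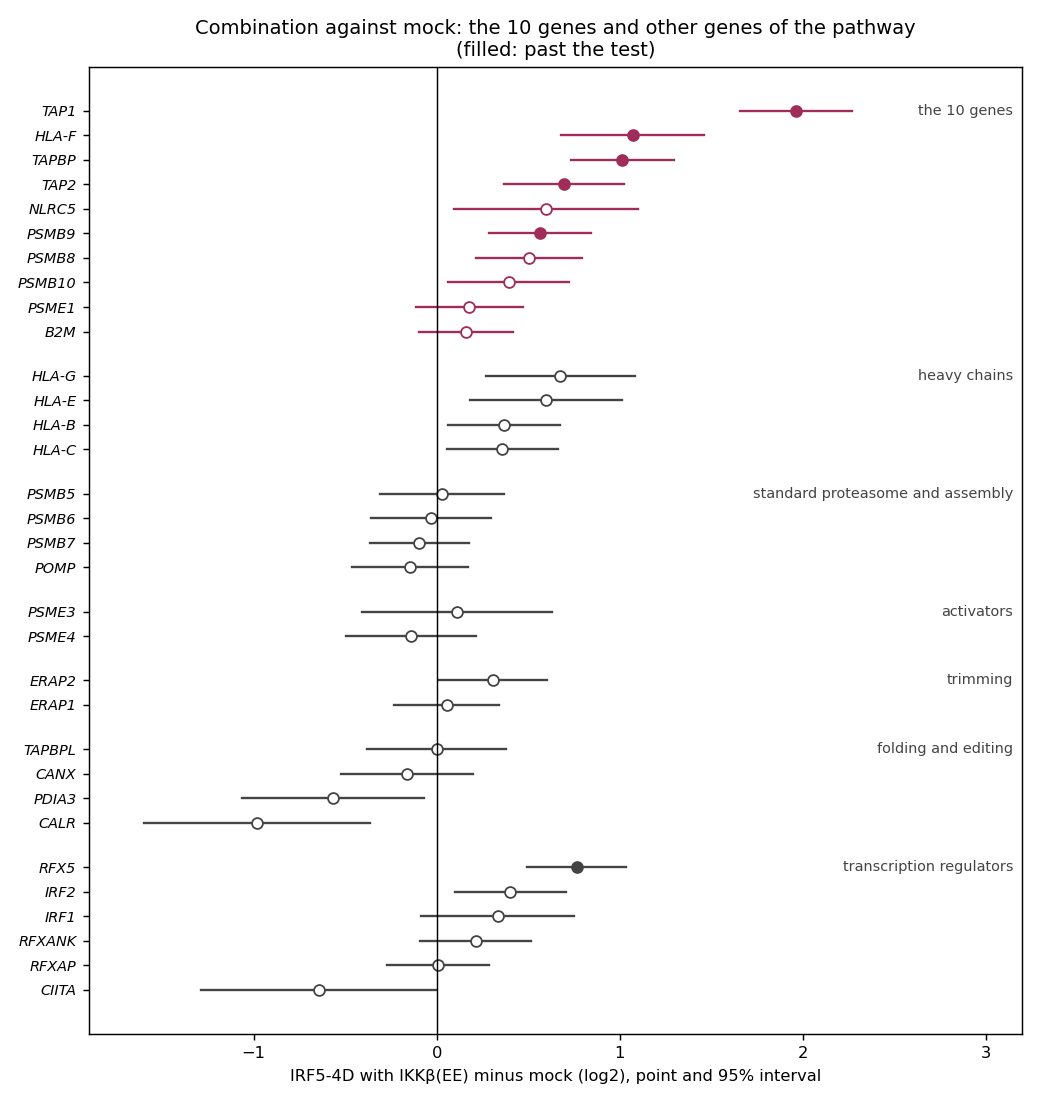
Combination minus mock (horizontal axis, log2, point with 95% interval) for the lead probe sets of the 10 genes and of 22 other genes of the pathway, grouped by role. Filled points passed limma's test: TAP1, HLA-F, TAPBP, TAP2 and PSMB9 among the 10 genes, and RFX5 among the others.

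Likeness to TAP1 was described by the correlation of lead probe sets over the 8 arrays, which share their groups. Among the 10 genes it was 0.97 for TAPBP and PSMB9, 0.92 for HLA-F, 0.91 for TAP2, 0.89 for PSMB8, 0.76 for B2M and PSMB10, 0.64 for NLRC5 and 0.60 for PSME1. Of 560 other genes whose group means spanned at least 1 on the log2 scale, the 5 most like TAP1 were MS4A1 (0.99), SHOX2 (0.98), TNIP2 (0.98), NAMPT (0.97) and MVP (0.97). MS4A1, the B-cell antigen CD20, was not on the list of precursor B markers. Its group means were 3.29 in mock cells, 4.88 with IRF5-4D, 6.44 with IKKβ(EE) and 9.64 in the combination. TNIP2, a regulator of NF-κB signalling, had means of 8.42, 8.91, 9.35 and 10.14 in the same order. The TAP1 means were 9.50, 10.01, 10.59 and 11.46, and since these genes were picked for their likeness to TAP1, a shared order is no further result.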

How the data were processed

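The deposited values are log2 expression values made by the authors with RMA, per the submitters' processing notes. RMA removes background, gives all arrays the same distribution and combines the probes of each probe set into 1 value. Its version is not given in the sources, and array images were not used here. Of 54675 probe sets, 62 Affymetrix controls and 13522 others without exactly 1 symbol in the 2016 platform annotation were left out. Entrez identifiers of 41037 probe sets were found in RefSeq, and 0 symbols changed.

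A group-means model was fitted in limma 3.58.1 (R 4.3.3, lmFit and eBayes, trend and robust off) to 41091 probe sets and 8 arrays, with no filter on level. It had 4 residual and 5.24 prior degrees of freedom. Benjamini-Hochberg adjustment of the p-values ran over all 41091, and a probe set was called at an adjusted p under 0.05. Differences are log2 with the moderated standard error (SE), and intervals are 95%. The number of arrays limits the precision, and the p-values measure the spread between the biological duplicates.

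The 10 genes, the pathway and marker lists, the promoter patterns and the rule for naming genes were chosen with earlier results of these data known. The rule names the 10 genes, pathway genes called in any comparison, IRF1 and the 5 genes most like TAP1; the other pathway genes are printed as values whatever they read. The procedure was also run on simulated data, but how often it recovers changes as small as those seen here is not reported. The alternatives were 1 probe set per gene, the mean over a gene's probe sets, a fit without _x_at probe sets, a fit without probe sets under the median level, another quantile normalization, median centring, limma with trend or array weights, a replicate block, only the groups compared, and leaving out each array.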

Additional observations from a re-analysis of the deposited data

How the results depend on the processing

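The number of the 10 genes called depended on the arrays used. Leaving out 1 array at a time gave 0 to 2 called genes for IKKβ(EE) against mock (1 with all arrays), 2 to 3 for the combination against mock (5 with all arrays), 1 to 3 for the combination against IRF5-4D (2) and 0 to 1 for the combination against IKKβ(EE) (1); a fit without an array has fewer residual degrees of freedom, and the array left alone in its group is assumed to vary like the others. For IKKβ(EE) against mock 2 genes, TAP1 and TAPBP, were called with 1 probe set per gene, with median centring and with array weights. For the combination against mock, array weights called 3 genes, and a fit of only the groups compared called 2. For the combination against IRF5-4D, the mean over a gene's probe sets and a fit of only the groups compared each called 1, and for the combination against IKKβ(EE) the latter called 0. For IRF5-4D against mock, IRF5-4D against IKKβ(EE) and the interaction, limma called 0 of the 10 genes in every setting.

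The single-gene values counted here covered all the genes against mock. In the other comparisons they covered only TAP1, TAP2, TAPBP, PSMB9, HLA-F and NLRC5. PSMB8, PSMB10, PSME1 and B2M were not counted there, and some of their differences lay close to 0, such as -0.005 for PSME1 between IRF5-4D and IKKβ(EE). Of the values counted, 897 kept direction and side of the threshold, 42 lost a call, 14 gained one and 13 changed sign. No value that changed sign had been called. Without 1 array, IRF5-4D against mock ranged from -0.15 to 0.23 for TAP2, from -0.048 to 0.094 for B2M and from -0.37 to 0.31 for NLRC5. NLRC5 also ranged from -0.30 to 0.38 for IKKβ(EE) against mock and from -0.20 to 0.065 for IRF5-4D against IKKβ(EE). The interaction ranged from -0.032 to 0.35 for TAP2, from -0.20 to 0.050 for TAPBP and from -0.031 to 0.41 for HLA-F, and without _x_at probe sets HLA-F gave -0.37. The cause was not tested.

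With the array number as a replicate block, 2 genes were called for IKKβ(EE) against mock (TAP1, TAPBP), 6 for the combination against mock (PSMB8 added) and 4 for the combination against IRF5-4D (TAP1, TAP2, TAPBP, HLA-F). The labels do not say that a number marks a shared batch. Correlations of the array 1 minus array 3 differences between groups over 41091 probe sets were 0.30, 0.33 and 0.20 among mock, IRF5-4D and IKKβ(EE), and -0.059, 0.099 and 0.12 between these and the combination.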
